A study of Mus musculus with 6 samples.

Results

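The genes examined here encode chemokines, cytokines and the receptors that bind them, in keratocytes sorted from the mouse cornea. A gene was a member if its symbol was Ccl, Cxcl, Cx3cl or Ackr followed by a number, or if it was one of 18 named cytokine and cytokine receptor genes. Of the 17606 genes in the deposited expression data, 52 met this rule: 17 CC chemokines, 12 CXC chemokines, 1 CX3C chemokine, 4 atypical chemokine receptors, 7 cytokine ligands and 11 cytokine receptors. Fold changes are given for the 39 members that had 10 or more counts in at least 3 of the 6 libraries and that were among the 13888 genes tested.

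Bulk RNA-seq was performed on 3 control libraries and 3 Ptch1-ablated libraries of keratocytes, the mesenchymal cells of the corneal stroma. Ptch1-ablated mice carried Prrx1-CreERT, a Cre recombinase that tamoxifen switches on in Prrx1-expressing cells, and floxed Ptch1, the gene of the Hedgehog receptor that keeps the pathway silent. Both groups are labelled as 10 weeks old, with 3 doses of tamoxifen and treatment for 1 month. Per the study, keratocytes were isolated 1 month after tamoxifen. Whether 10 weeks is the age at induction or at isolation was not resolved here. The comparison asks how sustained Hedgehog signaling alters the keratocyte transcriptome. The control genotype is labelled only as control. Per the study's methods the floxed line was on a C57BL/6 background, both sexes were used, each group had 3 biological replicates, and Prrx1-CreERT also recombines in corneal endothelial cells. Sex, pooling of mice and the sorting gate are not given per library.

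Chemokines are small secreted proteins that direct the movement of leukocytes and other cells through G protein-coupled receptors, and they are classed as CC, CXC or CX3C by the spacing of their first cysteines. Atypical chemokine receptors bind chemokines without signaling through G proteins, and they take up or transport their ligands. Cytokines of the interleukin-6 family share the signal-transducing receptor gp130, encoded by Il6st, and act through JAK kinases and STAT factors, whereas interleukin-1 signals through adaptors that activate NF-kB. In the cornea, interleukin-1 is known as a signal from injured epithelium to keratocytes, which answer with chemokines that attract leukocytes.

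Library totals ran from 20258439 to 24788063 counts. Ptch1 itself gave 172, 104 and 369 counts across control replicates 1 to 3, against 4348, 5194 and 6230 across ablated replicates 1 to 3, a gene total that does not resolve the floxed exons and so does not check the deletion. The keratocyte markers Kera, Lum and Aldh3a1 were abundant, with at least 88567 counts of each in every library, although Ptgds had at most 39 counts. For comparison with each marker list below, 4.68% of all genes tested passed as higher and 3.80% as lower. Of the 9 tested keratocyte markers 7 passed as lower and 0 as higher. Their median change was -1.09 on the log2 scale, and Kera fell by 1.59 on the log2 scale. Markers of other cell types were detected in every library. Summed TPM (transcript abundance, a level scaled by gene length) of the leukocyte and macrophage markers was 5873 to 6481 in the controls and 8697 to 9233 in the ablated libraries. Of 19 tested markers 6 passed as higher and 0 as lower, while 8 were fitted below 0, with a median log2 fold change of 0.17. For vascular and lymphatic endothelium the summed TPM was 310.4 to 427.7 against 501.6 to 580.1, with 4 of 10 higher, and for mural cells 398.8 to 478.1 against 695.7 to 777.2, with 4 of 9 higher. Corneal epithelium markers summed to 56.1 to 91.8 against 5.82 to 9.76 TPM, with 4 of 8 lower and 1 higher. Corneal endothelium markers summed to 389.4 to 446.3 against 341.1 to 539.1 TPM, with 2 of 6 higher. Schwann cell and melanocyte markers summed to 44.9 to 69.7 against 115.8 to 137.4 TPM, with 1 of 7 higher. Immediate early genes, which respond to stress and to cell isolation, summed to 10862 to 12669 against 20136 to 22429 TPM, with 12 of 20 higher. On the TPM scale the median of all genes was shifted upward by 0.19 (log2), and these sums contain that shift. In bulk RNA, more cells of a type and more RNA per cell cannot be told apart. The second principal component, with 22.2% of the variance, set control replicate 1 and ablated replicate 2 apart.

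**Figure D1:**
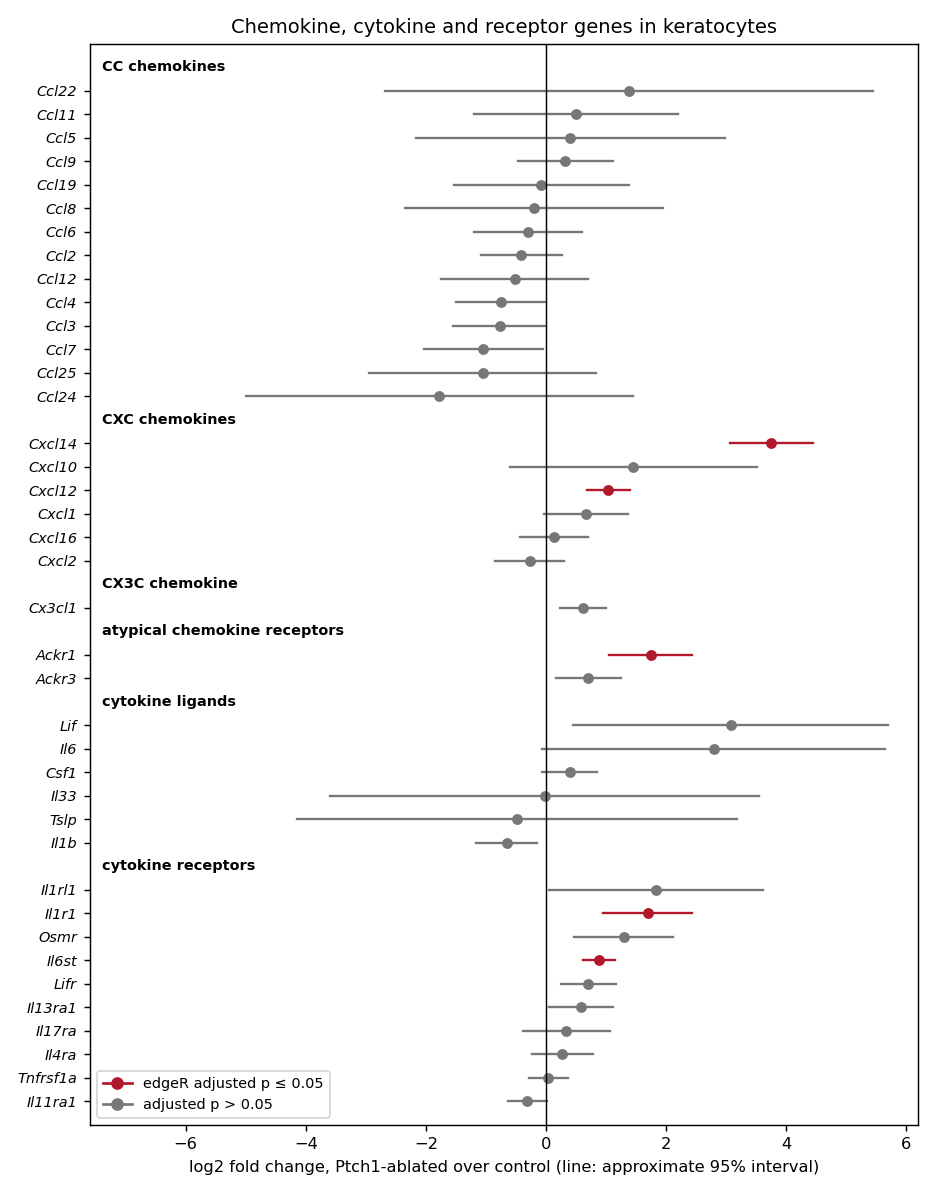
Log2 fold change of the 39 reported members, Ptch1-ablated over control, as points with approximate 95% intervals, grouped by family. Red marks the 5 members with an edgeR adjusted p of at most 0.05, all above 0, and grey marks the other 34, including every CC chemokine. Of all genes tested, 4.68% passed as higher and 3.80% as lower.

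Of the reported members 5 rose in the Ptch1-ablated keratocytes and 0 fell. Those that rose were the chemokines Cxcl14 (13.4-fold) and Cxcl12 (2.05-fold), the atypical chemokine receptor Ackr1 (3.34-fold), the interleukin-1 receptor Il1r1 (3.23-fold) and the shared receptor Il6st (1.84-fold). Of 39 members 5 (12.8%) thus passed edgeR's quasi-likelihood test as higher at an adjusted p of at most 0.05, where 4.68% of all genes tested did, and 3.80% of all genes passed as lower. With a fold change of at least 2 as a further condition, 4 members were called higher, against 3.36% of all genes. At an unadjusted p under 0.05, 12 members were higher and 2 lower, against 10.8% and 9.72% of all genes. DESeq2 passed 9 members as higher and 1, Il1b, as lower, and limma on log2(TPM + 1) passed 11 and 0. Every ablated library lay above every control library for 14 members (35.9%, against 14.1% of all genes) and below for 3 (7.69%, against 13.3%). Without control replicate 1 and ablated replicate 2, chosen after seeing the data, 5 members passed as higher and 3 were called. The median log2 fold change was 0.34 over the members and 0.0046 over all genes tested.

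Promoters are shown for the 4 CXC chemokines of highest mean TPM in the ablated libraries. In the controls Cxcl14 held 1.97% of the summed CXC TPM, and Cxcl16, which is not shown, held 13.8%. The 4 genes were chosen with the results known: Cxcl14 and Cxcl12 passed the test, and Cxcl1 and Cxcl2 did not. Each sequence is the 250 bases before the first listed transcription start in RefSeq, assembly GRCm38.p6, written 5′ to 3′ on the gene's strand. Capitals mark matches to the NF-kB consensus (the kB motif), searched on both strands. Cxcl14 lies at chr13:56296552-56296801 on the minus strand, and Cxcl12 at chr6:117168285-117168534, Cxcl1 at chr5:90890995-90891244 and Cxcl2 at chr5:90903649-90903898 on the plus strand.
Cxcl14: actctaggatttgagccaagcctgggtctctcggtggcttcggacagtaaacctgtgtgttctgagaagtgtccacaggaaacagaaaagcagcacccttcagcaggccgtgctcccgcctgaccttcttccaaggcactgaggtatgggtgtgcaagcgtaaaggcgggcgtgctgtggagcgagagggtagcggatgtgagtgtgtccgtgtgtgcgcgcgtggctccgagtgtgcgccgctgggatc
Cxcl12: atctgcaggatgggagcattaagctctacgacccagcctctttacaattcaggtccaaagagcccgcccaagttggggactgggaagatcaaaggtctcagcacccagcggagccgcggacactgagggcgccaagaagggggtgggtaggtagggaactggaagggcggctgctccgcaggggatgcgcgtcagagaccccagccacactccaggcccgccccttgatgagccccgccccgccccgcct
Cxcl1: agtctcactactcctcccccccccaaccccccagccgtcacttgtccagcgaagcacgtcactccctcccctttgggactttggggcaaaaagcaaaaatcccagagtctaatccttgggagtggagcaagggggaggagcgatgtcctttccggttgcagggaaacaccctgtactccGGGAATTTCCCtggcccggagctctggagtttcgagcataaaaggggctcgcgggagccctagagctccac
Cxcl2: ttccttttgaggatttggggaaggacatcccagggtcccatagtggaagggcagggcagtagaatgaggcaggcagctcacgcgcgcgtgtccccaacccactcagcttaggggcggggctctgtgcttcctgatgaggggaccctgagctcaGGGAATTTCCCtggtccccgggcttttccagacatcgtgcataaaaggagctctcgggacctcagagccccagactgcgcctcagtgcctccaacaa
The same stretch of capitals lies 71 to 61 bases before the start of Cxcl1 and 97 to 87 bases before that of Cxcl2. In each promoter it joins 2 overlapping matches on opposite strands. No match was found in these windows of Cxcl14 or Cxcl12. Promoters were available for 40 members, 30 of them reported. The kB motif was present in 8 of the 40 (20%) and in 1014 of all 27025 promoters (3.75%). The reported members that held it, 6 of 30 (20%), were Ccl9, Csf1, Cxcl1, Cxcl2, Cxcl10 and Il6, none of which passed the test. Only 5 of all 39 reported members (12.8%) passed, so 0 of 6 is near that share. A link between the motif and the response was not tested. The Gli motif GACCACCCA, searched on both strands, was in 57 of all promoters (0.211%) and in 0 of the 40. With 40 promoters, 0 is near that share, so no conclusion is drawn from it. A match is a description of letters in this window only.

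Cxcl14, a chemokine made by epithelia and stromal cells, showed the largest change. It gave 90, 119 and 61 counts across control replicates 1 to 3, against 1425, 1272 and 1489 across ablated replicates 1 to 3. The groups were far apart, and the ablated libraries lay within a narrow range. Normalized counts rose from 4.35 ± 1.80 to 58.2 ± 3.66 CPM (counts scaled to a common library total, SD, n = 3 each), with 3.75 ± 0.32 as log2 fold change and SE (edgeR adjusted p = 1.25e-05). By TPM it ranked 31 among the reported members in the controls and 10 in the ablated libraries, at 5.42 ± 2.17 in the controls and 84.1 ± 1.81 in the ablated libraries (SD, n = 3 each).

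Cxcl12, the stromal ligand of Cxcr4 and of the scavenger receptor Ackr3, gave 1363, 1164 and 1784 counts across controls, against 3131, 3576 and 3208 across ablated libraries. The groups did not overlap. Cxcl12 rose from 67.2 ± 9.38 to 138 ± 12.1 CPM (SD, n = 3 each), with 1.04 ± 0.17 as log2 fold change and SE (edgeR adjusted p = 0.00183). Ackr3 gave 495, 280 and 421 counts across controls, against 719, 677 and 784 across ablated libraries. These values did not overlap either, but the log2 fold change of Ackr3, 0.70 ± 0.25 (SE), did not pass (edgeR adjusted p = 0.118). Cxcr4 was scarce, with 6, 62 and 54 counts across controls, against 67, 66 and 57 across ablated libraries (log2 fold change 0.43 ± 0.92, SE, edgeR adjusted p = 0.860).

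**Figure D2:**
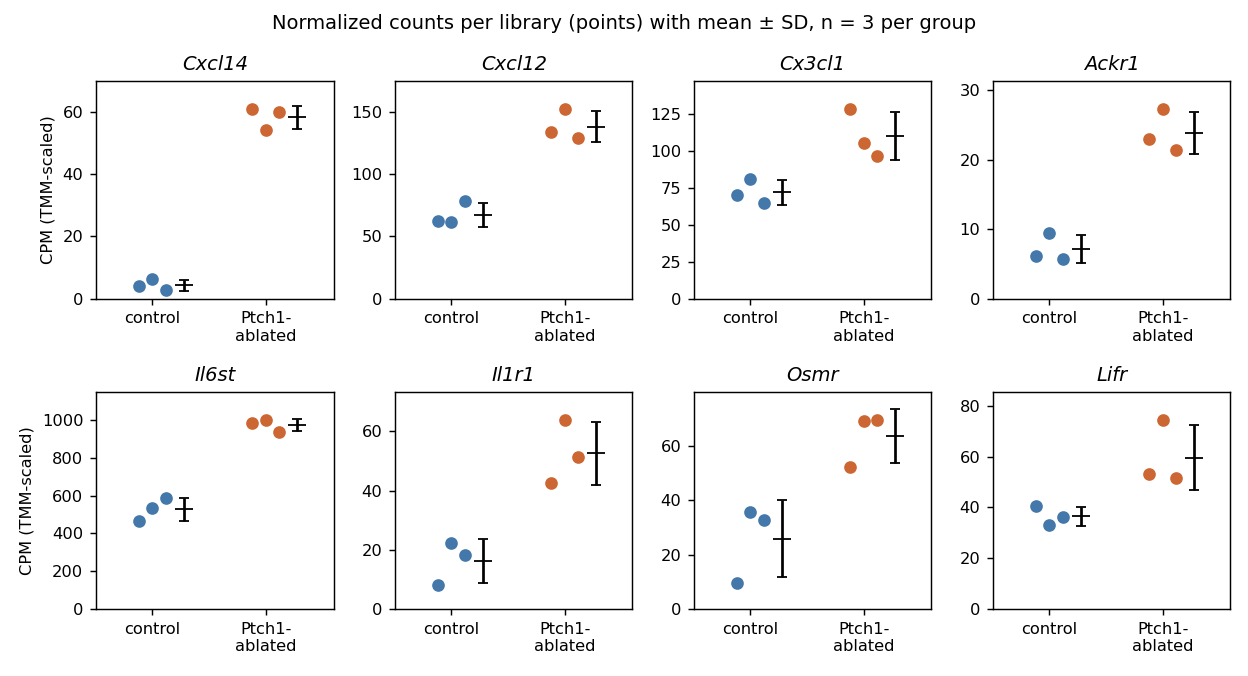
Normalized counts (TMM-scaled CPM, linear axes from 0) of 8 members in each library, with the mean and SD of 3 libraries per group beside the points. The groups are separate in each panel, and control replicate 1 (the leftmost control point) is the lowest control for Il1r1, Osmr and Il6st.

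Cxcl1 and Cxcl2, ligands of the neutrophil receptor Cxcr2, did not follow this pattern. Cxcl1 gave 602, 394 and 724 counts across controls, against 544, 1041 and 1484 across ablated libraries. Ablated replicate 1 fell among the controls, and the log2 fold change of 0.67 ± 0.32 (SE) did not pass (edgeR adjusted p = 0.268). Cxcl2 gave 939, 745 and 1281 counts across controls, against 603, 902 and 1257 across ablated libraries. After scaling, ablated replicates 1 and 2 lay below every control and replicate 3 within their range (log2 fold change -0.27 ± 0.26, SE, edgeR adjusted p = 0.637, 95% interval -0.85 to 0.30). Cxcr2 itself gave 207 to 266 counts across controls, against 88.4 to 226 across ablated libraries (log2 fold change -0.70 ± 0.43, SE, edgeR adjusted p = 0.403). Cxcl10, an interferon-induced ligand, gave 1, 73 and 85 counts across controls, against 110, 192 and 198 across ablated libraries. The groups did not overlap, yet the spread among controls was wide (log2 fold change 1.45 ± 0.94, SE, edgeR adjusted p = 0.439). Cxcl16, which is made as a membrane-bound ligand, gave , with 0.13 ± 0.26 as log2 fold change and SE (edgeR adjusted p = 0.854). RefSeq places Cxcl10 over Art3 and Cxcl16 over Zmynd15, and whether counting used strand is not given in the sources used here.

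The makeup of the CXC transcripts differed between the groups. Cxcl2 held 37.4 ± 2.66% of the summed CXC TPM in the controls and 19.0 ± 2.80% in the ablated libraries, whereas Cxcl14 went from 1.97 ± 1.01% to 16.1 ± 3.52% and Cxcl12 from 18.4 ± 2.46% to 26.2 ± 4.36% (SD, n = 3 each). In all 3 ablated libraries the share of Cxcl2 was below, and that of Cxcl14 above, its share in every control. Cxcl1 held 25.5 ± 2.91% in the controls against 24.5 ± 6.72% (SD, n = 3 each). The reported CXC members together came to 286 ± 40.5 TPM in the controls and 529 ± 96.8 TPM in the ablated libraries (SD, n = 3 each). On the TPM scale the median of all genes was itself shifted upward by 0.19 (log2), so such sums contain that shift and the shares do not.

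**Figure D3:**
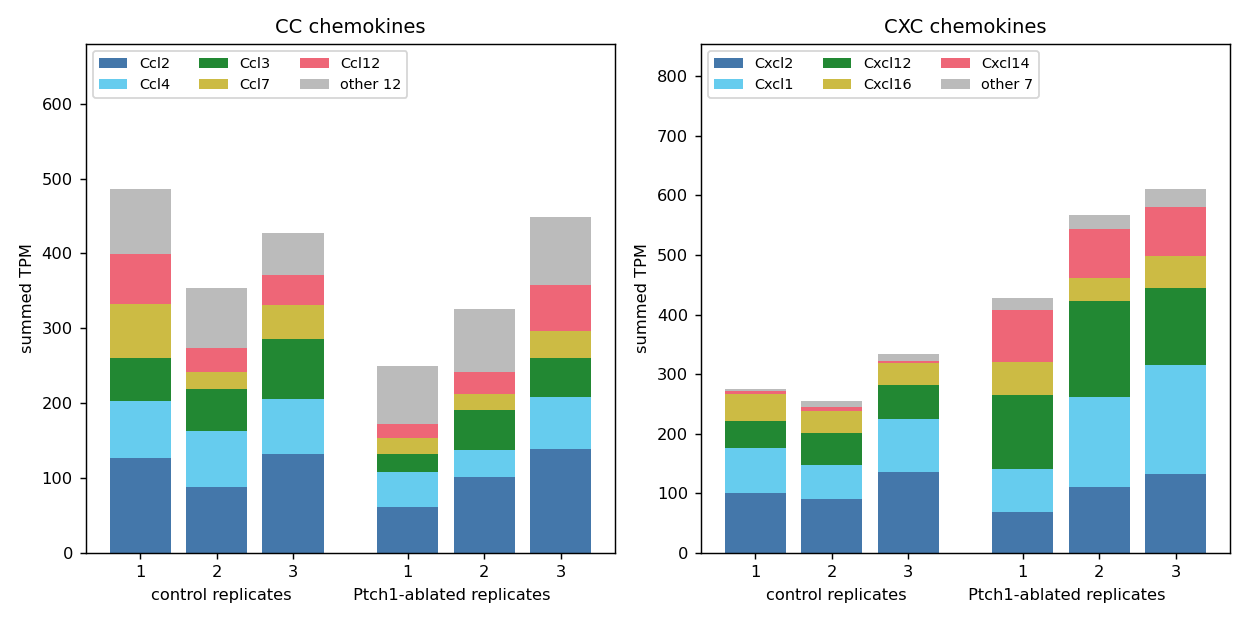
Summed TPM of the 17 CC (left) and 12 CXC (right) chemokines in each library, stacked by gene, with the less abundant members of each family pooled in grey. Cxcl14 forms a thin layer in the controls and a thick one in all 3 ablated libraries, while Ccl2, Ccl4 and Ccl3 make up the largest part of the CC bars in both groups.

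None of the 14 reported CC chemokines passed the test, where 4.68% of all genes passed as higher and 3.80% as lower. With 14 genes, 0 is near these shares. Their median log2 fold change was -0.36, and 4 (28.6%) were above 0, against 50.4% of all genes. Every ablated library lay below every control for 2 (14.3%), against 13.3% of all genes. Ccl2, which attracts monocytes, was the most abundant at 116 ± 24.4 TPM in the controls and 100.2 ± 39.2 TPM in the ablated libraries (SD, n = 3 each). It gave 805, 487 and 848 counts across controls, against 361, 552 and 894 across ablated libraries, and the groups overlapped (log2 fold change -0.41 ± 0.31, SE, edgeR adjusted p = 0.517). Ccl4, a chemokine made by activated leukocytes, gave 358, 311 and 348 counts across controls, against 210, 151 and 330 across ablated libraries. After scaling, every ablated library lay below every control for Ccl4 (-0.74 ± 0.34 on the log2 scale, SE, edgeR adjusted p = 0.246) and for the neighbouring Ccl3 (-0.77 ± 0.35, 0.244). Ccl3 gave 353, 298 and 493 counts across controls, against 142, 283 and 328 across ablated libraries. RefSeq lists overlapping spans for Ccl3 and Ccl4. The expected counts of both were whole numbers in every library, so no division of reads between genes was visible. Whether reads were assigned to the wrong gene was not tested. Ccl7, another monocyte attractant, gave -1.05 ± 0.45 (SE, edgeR adjusted p = 0.214), and Ccl12 gave -0.52 ± 0.56 (0.678). Ccl19, which guides cells to lymphoid tissue, gave -0.08 ± 0.67 (SE, edgeR adjusted p = 0.973). Its sign turned under other scalings. The remaining CC members, Ccl5, Ccl6, Ccl8, Ccl9, Ccl11, Ccl22, Ccl24 and Ccl25, ranged from -1.78 to 1.38 with overlapping groups. Ccl2 held 27.4 ± 3.23% of the summed CC TPM in the controls and 28.8 ± 3.82% in the ablated libraries (SD, n = 3 each).

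Cx3cl1, the membrane-tethered ligand of the macrophage and microglia receptor Cx3cr1, stood at the threshold. It gave 1536, 1539 and 1476 counts across controls, against 3008, 2487 and 2408 across ablated libraries. The groups did not overlap, at 72.0 ± 8.27 against 110 ± 16.1 CPM (SD, n = 3 each). The log2 fold change was 0.61 ± 0.17 (SE), with an edgeR adjusted p that lay just above 0.05. It passed under 6 of 15 alternatives.

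Ackr1, a receptor of venular endothelium and red cells that binds many inflammatory chemokines and carries them across the vessel wall, gave 135, 181 and 131 counts across controls, against 539, 641 and 532 across ablated libraries. It rose from 7.14 ± 2.06 to 23.9 ± 3.01 CPM (SD, n = 3 each), with 1.74 ± 0.32 as log2 fold change and SE (edgeR adjusted p = 0.00428). No ablated library came near the controls. The endothelial markers Tie1, Cdh5, Emcn and Pecam1 rose in the same libraries, by 2.10, 1.43, 1.14 and 0.88 on the log2 scale, while Kdr and Lyve1 of the same 10 markers lay, after scaling, below every control in each ablated library without passing (-0.40 ± 0.14, SE, edgeR adjusted p = 0.112, and -2.10 ± 1.28, 0.405). The part of these cells in the rise of Ackr1 was not tested. RefSeq lists overlapping spans for Ackr1 and Cadm3, and its counts were not whole numbers, so some of its reads were divided between genes.

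Among the cytokine ligands, Il1b was the most abundant, and it did not pass. Il1b, the secreted interleukin-1 of activated macrophages, gave 3258, 2254 and 2637 counts across controls, against 1216, 2190 and 2434 across ablated libraries. After scaling, every ablated library lay below the controls, with 80.9 ± 25.3 against 128 ± 18.8 CPM (SD, n = 3 each). The log2 fold change was -0.66 ± 0.23 (SE, edgeR adjusted p = 0.116), and DESeq2 gave an adjusted p of 0.0463. Of the 19 leukocyte and macrophage markers 6 passed as higher in these libraries and 0 as lower, against 4.68% and 3.80% of all genes. Of the same markers 8 were fitted below 0, and their median log2 fold change was 0.17. Their summed TPM was above that of the controls, on a scale where the median of all genes was shifted upward by 0.19 (log2). The part of these markers in the level of Il1b was not tested. Ptprc, the pan-leukocyte marker among them, gave 603 to 1308 counts across controls, against 932 to 1297 across ablated libraries (log2 fold change 0.19 ± 0.27, SE, edgeR adjusted p = 0.767).

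Lif and Il6, both ligands of gp130 receptors, were scarce and higher in every ablated library. Il6 gave 0, 11 and 6 counts across controls, against 32, 67 and 41 across ablated libraries, and Lif had 0, 7 and 25 against 81, 53 and 169. The log2 fold changes of 2.79 ± 1.31 for Il6 (SE, edgeR adjusted p = 0.256) and 3.08 ± 1.2 for Lif (SE, edgeR adjusted p = 0.161) were the largest after that of Cxcl14, with wide errors. Both passed in limma on log2(TPM + 1), with adjusted p of 0.0108 for Il6 and 0.0289 for Lif. Csf1, which sustains macrophages, gave 0.39 ± 0.21 (SE, edgeR adjusted p = 0.333). Tslp, an epithelial and stromal cytokine of allergic inflammation, gave 0, 25 and 12 counts across controls, against 0, 26 and 5 across ablated libraries. Il33, a nuclear alarmin, gave 0, 30 and 2 counts across controls, against 21, 1 and 17 across ablated libraries. No difference was detectable at this depth for Tslp (edgeR adjusted p = 0.924) or Il33 (0.997).

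Of the 10 reported cytokine receptors 2 (20%) passed as higher, Il6st and Il1r1, against 4.68% of all genes. Fitted log2 fold changes were above 0 for 9 of them, where 50.4% of all genes were, with a median of 0.64. Every ablated library lay above every control for 6 (60%), against 14.1% of all genes. Il6st, which encodes gp130, gave 10154, 10173 and 13402 counts across controls, against 23050, 23487 and 23213 across ablated libraries. The ablated libraries were close to each other and well above the controls. Il6st rose from 529 ± 60.6 to 970.9 ± 33.0 CPM (SD, n = 3 each), with 0.88 ± 0.12 as log2 fold change and SE (edgeR adjusted p = 0.000652). By TPM it ranked 4 among the reported members in the controls and 2 in the ablated libraries, at 202 ± 27.2 and 431 ± 35.0 TPM (SD, n = 3 each).

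None of the receptors that pair with gp130 passed. Osmr, the oncostatin M receptor, gave 214, 677 and 747 counts across controls, against 1230, 1628 and 1727 across ablated libraries, with 1.29 ± 0.38 as log2 fold change and SE (edgeR adjusted p = 0.0581). Control replicate 1 was far below the other controls, and without it Osmr passed at 0.90 (edgeR adjusted p = 0.0295). Lifr, the receptor of Lif, gave 881, 631 and 825 counts across controls, against 1246, 1750 and 1280 across ablated libraries, which did not overlap (log2 fold change 0.71 ± 0.21, SE, edgeR adjusted p = 0.0623). Il11ra1, the interleukin-11 receptor, was the most abundant member in both groups, at 1001 ± 98.6 and 929 ± 134 TPM (SD, n = 3 each). It gave 16283, 16424 and 15868 counts across controls, against 16719, 11662 and 16050 across ablated libraries, with ablated replicate 2 the lowest (log2 fold change -0.31 ± 0.15, SE, edgeR adjusted p = 0.267). Il11ra1 overlaps Ccl27a in RefSeq, so its level is uncertain.

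Il1r1, the signaling receptor of interleukin-1, gave 177, 427 and 419 counts across controls, against 996, 1502 and 1280 across ablated libraries. It rose from 16.3 ± 7.38 to 52.6 ± 10.7 CPM (SD, n = 3 each), with 1.69 ± 0.34 as log2 fold change and SE (edgeR adjusted p = 0.00804). Control replicate 1 was the lowest of the controls, and without it the log2 fold change was 1.37 (edgeR adjusted p = 0.0067). The related Il1rl1, the receptor of interleukin-33, gave 2.87, 103 and 118 counts across controls, against 208, 297 and 412 across ablated libraries, and did not pass (log2 fold change 1.83 ± 0.81, SE, edgeR adjusted p = 0.226). Tnfrsf1a, the main receptor of tumor necrosis factor, was the receptor with the least difference between groups. It gave 4415, 4429 and 4556 counts across controls, against 5400, 5609 and 4526 across ablated libraries, with 0.04 ± 0.15 as log2 fold change and SE (edgeR adjusted p = 0.940) with a 95% interval of -0.29 to 0.36. Il13ra1 (0.58 ± 0.25, SE, edgeR adjusted p = 0.198), Il17ra (0.34 ± 0.33, 0.644) and Il4ra (0.27 ± 0.23, 0.574), receptors of type 2 cytokines and interleukin-17, did not pass. Il13ra1 gave 461, 352 and 337 counts across controls, against 601, 664 and 689 across ablated libraries. Its groups did not overlap, unlike those of Il17ra and Il4ra.

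The 13 members under the reporting limit are Ackr2, Ackr4, Ccl1, Ccl17, Ccl28, Cxcl3, Cxcl5, Cxcl9, Cxcl13, Cxcl15, Cxcl17, Il11 and Tnfrsf11b. None had more than 72 counts in a library, and 12 had a library at 0. Tnfrsf11b, the decoy receptor of the osteoclast factor RANKL, had 0 counts in all controls and 16, 1 and 58 in the ablated libraries. Cxcl13, a B cell attractant, had 0, 3 and 8 counts against 71, 4 and 72, and Il11 had 0, 0 and 20 against 0, 38 and 0. Cxcl5, a neutrophil attractant, had 52, 0 and 12 counts in the controls and 0 in every ablated library. Just inside the limit, with 10 counts in 3 libraries, were Ccl22, Ccl24, Il33 and Tslp. Just outside it, with 2 such libraries, were Ccl17, Cxcl5, Cxcl13, Il11 and Tnfrsf11b.

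Downstream of these receptors, 5 of 24 JAK-STAT and SOCS genes passed as higher (20.8%, against 4.68% of all genes) and 0 as lower (against 3.80%), while the median log2 fold change of the list was 0.01. Socs3, the feedback inhibitor that binds gp130, gave 4190, 3706 and 5237 counts across controls, against 8445, 9133 and 8325 across ablated libraries (log2 fold change 0.81 ± 0.13, SE, edgeR adjusted p = 0.0023). Jak3, a kinase of lymphoid and myeloid receptors, was the only one past a 2-fold change, at 1.35 ± 0.37 (SE, edgeR adjusted p = 0.0434). Jak1, Stat3 and Stat2, chosen here after their values were seen, gave 0.62 ± 0.15 (SE, edgeR adjusted p = 0.0196), 0.58 ± 0.16 (0.0442) and 0.63 ± 0.17 (0.0457). With any 1 library left out the list had 1 or 2 genes past the test, and Socs3 passed under all 15 alternatives. The immediate early genes, which rose in the same libraries, are plotted beside this list, and their part in it was not tested.

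**Figure D4:**
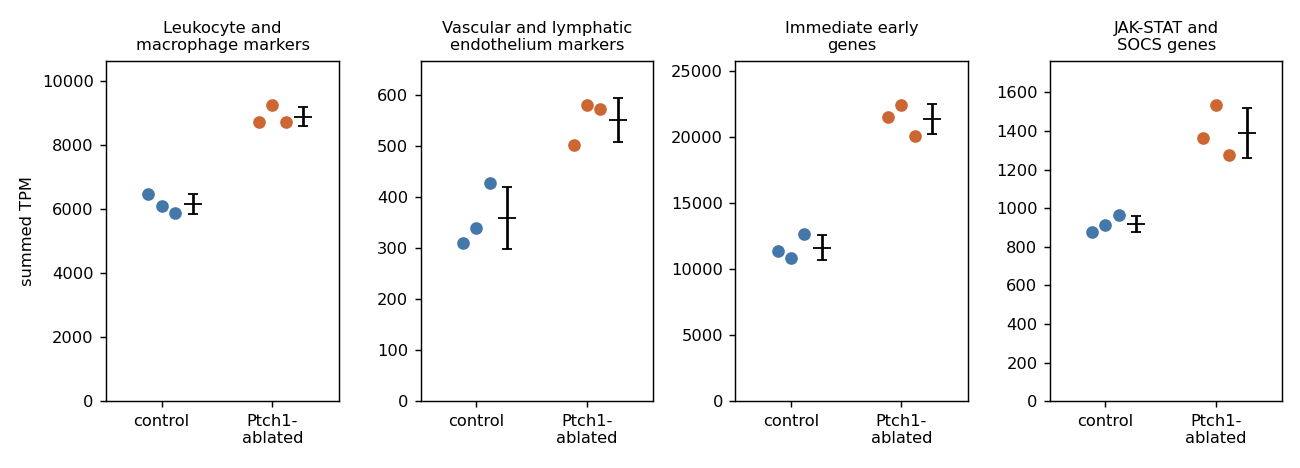
Summed TPM of 4 gene lists in each library (points) with the mean and SD of 3 libraries per group, on linear axes from 0. The ablated libraries lie above the controls in all 4 panels: leukocyte markers, endothelial markers, immediate early genes, and JAK-STAT and SOCS genes. The sums contain the upward shift of 0.19 (log2) in the median of all genes on the TPM scale.

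Few genes of the other related lists passed the test, where 4.68% of all genes passed as higher and 3.80% as lower. Of 15 tested chemokine receptors and decoys, 2 passed as lower and 0 as higher. At an unadjusted p under 0.05 there were 4 (26.7%), against 20.6% of all genes. Cmklr1, the chemerin receptor of macrophages, gave 2637, 1890 and 1798 counts across controls, against 933, 798 and 781 across ablated libraries (log2 fold change -1.51 ± 0.20, SE, edgeR adjusted p = 0.000538). Ccrl2, a chemerin-binding receptor chosen here after its value was seen, gave -0.93 ± 0.25 (SE, edgeR adjusted p = 0.0371), and it lost its call under 7 alternatives. Of 30 other cytokine receptors, Csf2rb rose (1 gene, 3.33%) and Il17rc fell, which is near the shares of all genes. At an unadjusted p under 0.05 there were 11 (36.7%), against 20.6% of all genes. Csf2rb, the shared beta chain of the receptors for interleukin-3, interleukin-5 and GM-CSF, had 546, 807 and 925 counts against 3197, 1883 and 2152 (log2 fold change 1.49 ± 0.26, SE, edgeR adjusted p = 0.0033). Il17rc, also chosen after its value was seen, gave -0.82 ± 0.22 (SE, edgeR adjusted p = 0.0380) and lost its call under 8 alternatives. Of 21 other interleukins and growth cytokines 0 passed in edgeR (3, or 14.3%, at an unadjusted p under 0.05, against 20.6% of all genes) and 2 in DESeq2. Among them Tnf gave 1220, 751 and 904 counts across controls, against 762, 685 and 1190 across ablated libraries (log2 fold change -0.30 ± 0.25, SE, edgeR adjusted p = 0.562). Of 30 NF-kB and interleukin-1 or TNF adaptor genes 0 passed in edgeR (3, or 10%, at an unadjusted p under 0.05, against the same 20.6%) and 1 in DESeq2.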

How the data were processed

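RNA was measured in sorted corneal keratocytes, 3 control and 3 Ptch1-ablated libraries, grouped by sample title. The labels name Trizol extraction and an Illumina TruSeq kit, whereas the study's methods name Ribo-Zero depletion and a BGISEQ-500. Per the submitters' processing notes, Bowtie2 2.2.5, RSEM 1.2.12 and the genome build mm9 were used. The annotation and strandedness are not given in the sources used here. The deposited table holds the authors' expected counts per gene, of which 18.6% were not whole, and the authors' TPM values, scaled by length and to a common sum. Deposited FPKM values and group means were not used.

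After rounding of the expected counts, filterByExpr kept 13888 of 17606 genes. TMM gave the scaling, and the quasi-likelihood test of edgeR (two-sided) gave p-values, adjusted by Benjamini-Hochberg over all genes tested. Genes with an adjusted p up to 0.05 passed, and those that also changed by at least 2-fold were called, as in the study's methods. SE and 95% intervals were derived from the F statistic. CPM are counts per 1000000 of the TMM-scaled total, and 3 counts, the limit a count of 0 allows, are 0.121 to 0.158 CPM, covering counting error only. Replicates are separate samples, so p-values measure the spread between them. Tests were checked on simulated data.

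Members and gene lists were chosen with earlier results of these data known. Values in every library are given for members that passed, the 10 of highest mean TPM, and Il1b, Il6, Tnfrsf1a and Tslp. Those of other reported members were added where the groups did not overlap, and those of some scarce genes. Related genes are named where called, with Tnf and some others. Alternatives were DESeq2 (an NA adjusted p stayed NA), RLE and library-total scaling, 2 other low-count filters, limma on log2(TPM + 1) and log2(TPM + 0.1), the replicate number as a block, and leaving out each library. Leaving out control replicate 1 and ablated replicate 2 together was added after seeing the data. Promoters came from RefSeq GRCm38.p6, the first listed start of each gene, and no coordinates of the deposited table were used. The software was Python 3.11.15, matplotlib 3.10.9, DESeq2 1.42.0, edgeR 4.0.16, limma 3.58.1 and R 4.3.3.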

Additional observations from a re-analysis of the deposited data

How the results depend on the processing

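Cxcl14, Il6st, Cxcl12, Ackr1 and Il1r1 passed as higher under all 15 alternatives, with log2 fold changes of 3.49 to 4.10, 0.77 to 1.09, 0.91 to 1.39, 1.54 to 2.0 and 1.2 to 1.99. The count of members passing as higher was 9 with DESeq2, 8 with library totals, 11 with limma on log2(TPM + 1), 9 with a pseudocount of 0.1, and 5 to 6 with 1 library left out. Library totals and the 2 TPM fits also moved the median of all genes to 0.17, 0.19 and 0.22. Members called higher numbered 9 and 7 in the 2 limma fits and 3 to 4 with 1 library left out. DESeq2 passed 1 member as lower. JAK-STAT and SOCS genes passing numbered 8 in limma on log2(TPM + 1), 3 with the replicate block, 1 to 2 with 1 library left out and 1 without control replicate 1 and ablated replicate 2. NF-kB and adaptor genes passing numbered 1 with DESeq2, 2 with library totals, 2 and 2 in limma, and 0 to 1 with 1 library left out. Chemokine receptors numbered 1 with library totals, 1 to 2 with 1 library left out and 1 without both libraries. Other cytokine receptors numbered 5 with DESeq2, 1 to 3 with 1 library left out and 1 without both. Other interleukins numbered 2 with DESeq2, 0 to 1 with 1 library left out and 1 without both. Fewer samples enter the fits that leave libraries out, and the cause of the other changes was not tested.

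The sign turned for 10 members that had not passed. Ccl19 went to 0.074 with library totals, 0.11 and 0.12 in limma, 0.43 without both libraries, and -0.40 to 0.22 with 1 library left out. Ccl8 went to 0.13 with the replicate block, 0.33 and 0.41 in limma, 0.17 without both, and -0.69 to 0.37 with 1 left out. Il33 went to 0.13 with library totals, 1.97 with the block, 0.12 and 0.70 in limma, and -0.61 to 3.46 with 1 left out. Without both libraries Ccl12 gave 0.033 and Tnfrsf1a -0.069. With 1 library left out the ranges were -0.033 to 0.14 for Tnfrsf1a, -0.15 to 0.92 for Ccl11, -0.21 to 8.01 for Ccl22, -0.076 to 0.91 for Ccl5, -0.49 to 0.018 for Ccl6 and -2.52 to 0.71 for Tslp.

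Same-numbered control and ablated libraries correlated at -0.05, -0.05 and 0.04 after subtracting group means. Differently numbered libraries gave -0.04 to 0.07. No pairing by number was visible, but 3 libraries per group cannot exclude one. With the replicate block 942 genes passed in place of 1178, and Osmr passed (log2 fold change 1.47, edgeR adjusted p = 0.0203).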
